A study of Mus musculus with 6 samples.

Results

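The genes described here are 10 ligands and receptors of the vascular endothelial growth factor (VEGF) and angiopoietin systems, found by their names in the gene table of 21999 genes. They are 6 ligands (*Vegfa*, *Vegfb*, *Vegfc*, *Pgf*, *Angpt1* and *Angpt2*) and 4 receptors (*Kdr*, *Flt1*, *Tek* and *Tie1*), and all 10 passed the filter on low counts that left 13609 genes for testing. RNA was sequenced from lung microvascular endothelial cell cultures of SV129/B6 mice, with 3 isolations labelled *Ptprz1*+/+ and 3 labelled *Ptprz1*-/-, the genotype without the receptor tyrosine phosphatase PTPRZ1. All 6 cultures were untreated, and each came from the pooled lungs of 2 to 5 mice aged 3 to 8 weeks. They were grown to confluence in medium with endothelial cell growth supplement and heparin and then taken on magnetic beads that bind CD31, the product of *Pecam1*. Levels are given as CPM (counts scaled to a common library total, here edgeR's TMM-scaled one) for 1 gene across libraries, and as the deposited FPKM, which also accounts for gene length, between genes.

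VEGFA, VEGFB, VEGFC and placental growth factor (encoded by *Pgf*) are secreted ligands, and KDR (VEGF receptor 2) and FLT1 (VEGF receptor 1) are the tyrosine kinase receptors that bind VEGFA on blood endothelium. Angiopoietin 1 activates the endothelial receptor TIE2 (encoded by *Tek*) and steadies vessels, angiopoietin 2 acts on the same receptor and can oppose it, and TIE1 is a related receptor that modulates TIE2. In tissue the receptors are made mostly by endothelial cells, whereas VEGFA and angiopoietin 1 come largely from neighbouring cells such as epithelium, fibroblasts and pericytes. VEGFA has also been described as a ligand of PTPRZ1.

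Between 14496881 and 17709663 reads were counted per library. *Ptprz1* itself, the targeted gene, drew 197, 1837 and 508 counts across *Ptprz1*+/+ replicates 1, 2 and 3, against 1138, 1320 and 895 across the libraries labelled *Ptprz1*-/-, so its counts did not separate the genotypes and every direction given here rests on the labels. The summed CPM of 17 blood endothelial markers, none of them a member of the 10 genes, ran from 99.1 to 716 with the *Ptprz1*+/+ label and from 88.4 to 276 with the *Ptprz1*-/- label. It was below the sum of 10 fibroblast markers in 6 of 6 libraries (17772 to 25782 and 10948 to 27396 in the same order). The collagen genes *Col1a1*, *Col1a2* and *Col3a1* made up most of the fibroblast sum, with 5709, 4270 and 6851 of 18098 CPM in *Ptprz1*+/+ replicate 1. The sums are not scaled by gene length, so the size of the gap is not a share of cells. Smooth muscle and pericyte markers summed to 866 to 4435 and 1588 to 4611 CPM, mesothelial markers to 55.8 to 217 and 115 to 1380, and lymphatic endothelial markers to 6.58 to 58.3 and 3.71 to 11.6. Leukocyte markers summed to 13.2 to 51 and 10.6 to 22.2 CPM. Epithelial markers summed to 1.57 to 2.15 and 1.49 to 2.71 CPM, with up to 4 of the 6 genes at 0 counts in a library. The marker sums thus go against a pure endothelial culture in all 6 libraries, and in each genotype replicate 3 held the most endothelial marker RNA by the sum. A minority of the markers were not highest in the library labelled *Ptprz1*-/- replicate 3. Among them were *Eng* (59.6, 115 and 90.5 CPM across the *Ptprz1*-/- cultures) and *Esam* (9.55, 0.412 and 6.34 CPM). *Pecam1* and *Cdh5* (VE-cadherin) together were at 12.5, 18.7 and 290 CPM across *Ptprz1*+/+ replicates 1, 2 and 3, against 4.96, 8.92 and 93.7 CPM across the *Ptprz1*-/- cultures, so results are also given without both replicate 3 libraries.

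Per gene length, 5 of the 6 ligands had a higher median level than each of the 4 receptors, and *Angpt1* lay among the receptors. *Vegfa* had the highest median FPKM over the 6 libraries (131, from 80.8 to 171), followed by *Vegfb* (89.5, from 66.1 to 109), *Vegfc* (13.3, from 7.16 to 52), *Pgf* (8.28, from 4.78 to 16) and *Angpt2* (5.18, from 3.25 to 23.6). *Flt1* (1.11, from 0.335 to 6.25), *Angpt1* (1.09, from 0.0602 to 5.51), *Kdr* (0.687, from 0.208 to 3.49), *Tie1* (0.444, from 0.153 to 15) and *Tek* (0.443, from 0.146 to 3) came last. *Vegfb* lay above *Vegfc* in 6 of 6 libraries with no overlap of their ranges, and *Angpt2* lay above *Flt1* in 6 of 6 libraries although their ranges over all libraries overlapped. *Vegfa* and *Vegfb*, at the top, changed places in 1 of the 6 libraries, and from *Flt1* downwards each gene exceeded the next in only 3 or 4 of 6 libraries, so the order of those 5 genes is not set beyond the spread.

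**Figure D1:**
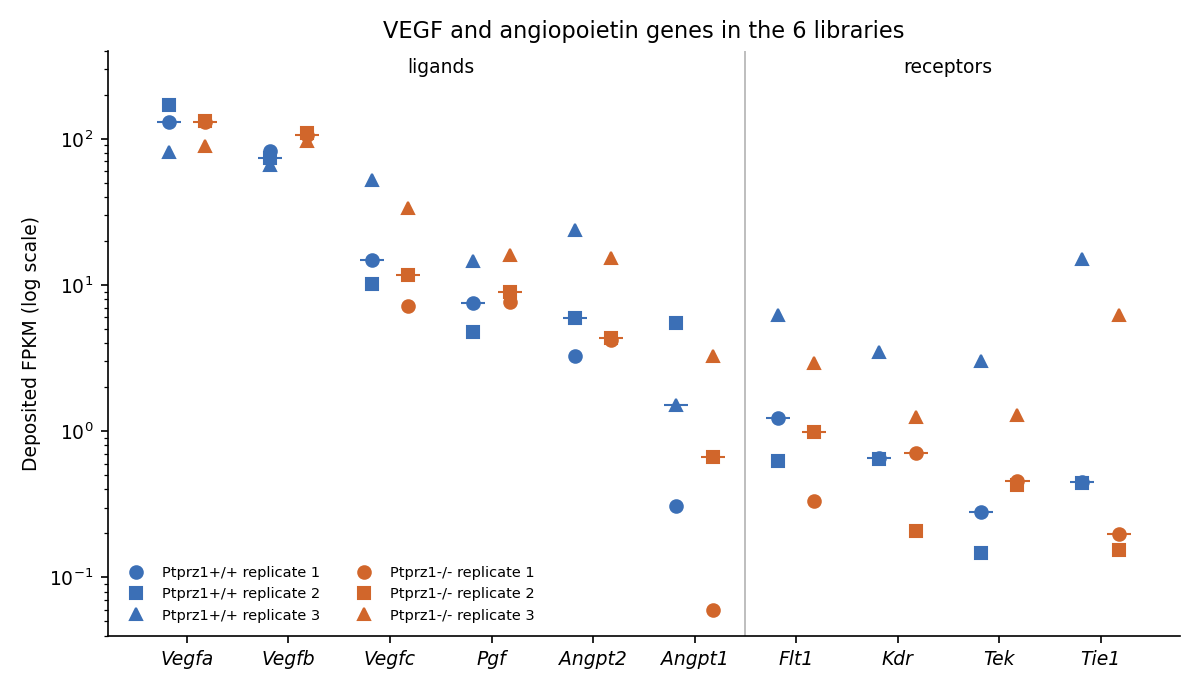
Deposited FPKM (log scale) of the 6 ligand and 4 receptor genes, 1 point per library, with colour for genotype, shape for replicate number and a short line at the median of 3 libraries. *Vegfa* and *Vegfb* lie close together in all 6 libraries, between 66.1 and 171 FPKM, while the receptors, *Vegfc*, *Pgf* and *Angpt2* are highest in replicate 3 of each genotype.

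The comparison of genotypes asks whether these genes differed between the cultures labelled *Ptprz1*+/+ and *Ptprz1*-/-. With edgeR, 0 of the 10 genes reached an adjusted p under 0.05, as did 0% of the 13609 genes tested (0 genes also by limma voom, and 30 genes, or 0.221% of those given an adjusted p, by DESeq2, none of them among the 10, with no p given for *Tek* and *Tie1*). Unadjusted, 1 of the 10 (*Vegfb*, higher) had a p under 0.05 in edgeR, a level that 2.69% of all genes tested reached in either direction and 1.13% in that direction. Groups that did not overlap were seen for 1 of the 10, again *Vegfb*, and for 7.28% of all genes tested.

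*Vegfb* (ENSMUSG00000024962, chromosome 19 of GRCm38 from 6982473 to 6987651) encodes a ligand of FLT1 that is better known for effects on metabolism and cell survival than for vessel growth. It was at 108, 91.6 and 87.6 CPM across *Ptprz1*+/+ replicates 1, 2 and 3, against 131, 148 and 118 CPM across the *Ptprz1*-/- cultures. All 3 libraries labelled *Ptprz1*-/- thus lay above all 3 *Ptprz1*+/+ libraries, as they did for 3.55% of all genes tested, while 3.73% lay lower without overlap and 0 of the 10 did so. The means were 95.7 ± 10.8 and 133 ± 15.1 CPM (SD, n = 3 each), a log2 fold change of 0.47 (standard error, SE, 0.14). The edgeR p was 0.0159 before adjustment and 1.00 after it. By exact permutation (two-sided) p was 0.10, the smallest that 3 libraries against 3 allow. The difference kept its sign in all 14 alternative fits, between 0.38 and 0.57, with a lowest adjusted p of 0.671 (DESeq2), and was 0.49 without both replicate 3 libraries. Because the groups did not overlap, fits that left out libraries could hardly turn the sign and are no further support. Replicate 3 was below the other replicates of its genotype for *Vegfb*, at 0.811 and 0.797 times the higher of them, so its level did not rise with the endothelial markers.

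*Vegfa* (ENSMUSG00000023951, chromosome 17 from 46016993 to 46032377), the main driver of blood vessel growth, was at 462, 575 and 289 CPM across the *Ptprz1*+/+ cultures, against 439, 484 and 293 CPM across the *Ptprz1*-/- cultures. In both genotypes the lowest value was that of replicate 3, the culture with the most endothelial RNA, at 0.502 and 0.605 times the higher of the other replicates. The genotypes overlapped (442 ± 144 and 405 ± 99.9 CPM, SD, n = 3 each), with a log2 fold change of -0.12 (SE 0.31, edgeR adjusted p = 1.00), whose sign turned without *Ptprz1*+/+ replicate 2 (0.11) and without the library labelled *Ptprz1*-/- replicate 3 (0.07). Without both replicate 3 libraries the log2 fold change was -0.17. As bulk RNA was read, fewer cells of a type and less RNA per cell cannot be told apart here or in what follows.

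Per gene length, the ratio of *Vegfa* to *Vegfb* was 1.59, 2.33 and 1.22 in the *Ptprz1*+/+ libraries and 1.24, 1.21 and 0.92 in the libraries labelled *Ptprz1*-/-, which overlap. *Vegfb* made up a share of 0.35, 0.283 and 0.31 of the summed FPKM of *Vegfa*, *Vegfb*, *Vegfc* and *Pgf* in the *Ptprz1*+/+ libraries and of 0.42, 0.417 and 0.411 in the libraries labelled *Ptprz1*-/-. This share was chosen after its values were seen and contains *Vegfb* itself, so it adds no independent evidence.

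*Vegfc* and *Pgf*, unlike *Vegfa* and *Vegfb*, were highest in replicate 3 of each genotype. *Vegfc* (ENSMUSG00000031520, chromosome 8 from 54077532 to 54186454), whose product acts mainly through the lymphatic receptor FLT4, was at 28.6, 18.6 and 101 CPM across the *Ptprz1*+/+ cultures, against 13, 23.3 and 60.5 CPM across the *Ptprz1*-/- cultures. Replicate 3 was thus 3.53 and 2.59 times the higher of the other replicates, and the log2 fold change between genotypes of -0.61 (SE 0.79, edgeR adjusted p = 1.00) turned to 0.45 without *Ptprz1*+/+ replicate 3. That fit still holds the endothelial-rich *Ptprz1*-/- replicate 3, and without both replicate 3 libraries the log2 fold change was -0.38. *Pgf* (ENSMUSG00000004791, chromosome 12 from 85166639 to 85177296), a ligand of FLT1, was at 12.1, 7.37 and 23.9 CPM and at 11.7, 15 and 24.3 CPM in the same order. Its replicate 3 values nearly coincided between genotypes, and its log2 fold change was 0.23 (SE 0.48, edgeR adjusted p = 1.00). It was 0.80 without *Ptprz1*+/+ replicate 3 but fell below 0 when *Ptprz1*-/- replicate 3 (-0.13) or *Ptprz1*+/+ replicate 2 (-0.09) was left out. Without both replicate 3 libraries it was 0.45.

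The angiopoietins differed from each other. *Angpt2* (ENSMUSG00000031465, chromosome 8 from 18690263 to 18741562), which endothelial cells store and release, was at 11.8, 20.7 and 87 CPM across the *Ptprz1*+/+ cultures, against 14.5, 16.5 and 52.6 CPM across the *Ptprz1*-/- cultures. Like *Vegfc* it was highest in replicate 3 of each genotype, 4.2 and 3.19 times the higher of the other replicates. Its log2 fold change of -0.52 (SE 0.85, edgeR adjusted p = 1.00) turned to 0.78 without *Ptprz1*+/+ replicate 3. That fit still holds the endothelial-rich *Ptprz1*-/- replicate 3, and without both replicate 3 libraries the log2 fold change was -0.07. *Angpt1* (ENSMUSG00000022309, chromosome 15 from 42424727 to 42676977) was at 1.33, 22.8 and 6.62 CPM across the *Ptprz1*+/+ cultures, against 0.248, 3.02 and 13.3 CPM across the *Ptprz1*-/- cultures. It spanned 91.9-fold over the 6 libraries and was highest in *Ptprz1*+/+ replicate 2 and lowest in the library labelled *Ptprz1*-/- replicate 1, which had 4 counts, an order unlike that of the endothelial markers. Its log2 fold change was -0.89 (SE 1.35, edgeR adjusted p = 1.00) and turned to 0.47 without *Ptprz1*+/+ replicate 2. Without both replicate 3 libraries it was -2.89. Exons of *Angpt1* share 737 bases with the antisense gene *Gm17473*, which leaves its level uncertain if reads were counted without strand. Per gene length, *Angpt1* was below *Angpt2* in 6 of 6 libraries, at ratios of 0.0637 to 0.921 across the *Ptprz1*+/+ cultures and 0.0144 to 0.212 across the others.

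All 4 receptors were highest in replicate 3 of each genotype, but to different extents. *Tie1* (ENSMUSG00000033191, chromosome 4 from 118471191 to 118490061) was at 1.93, 1.81 and 65.5 CPM across the *Ptprz1*+/+ cultures, against 0.806, 0.686 and 25.3 CPM across the *Ptprz1*-/- cultures. Replicate 3 was 33.9 and 31.4 times the higher of the other replicates, which compares with 20.7 and 21.5 times for *Pecam1* and 13.9 and 8.27 times for *Cdh5*. *Tek* (ENSMUSG00000006386, chromosome 4 from 94739289 to 94874976) was at 1.33, 0.66 and 14.4 CPM and at 2.05, 2.13 and 5.81 CPM in the same order. In the libraries with little endothelial RNA it was thus higher in those labelled *Ptprz1*-/-, on 33 and 31 counts against 22 and 12. In replicate 3 it was higher in the *Ptprz1*+/+ library.

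*Flt1* (ENSMUSG00000029648, chromosome 5 from 147561604 to 147726011), which binds VEGFA tightly and also exists as a soluble decoy, was at 8.64, 4.18 and 44.5 CPM across the *Ptprz1*+/+ cultures, against 2.23, 7.21 and 19.4 CPM across the *Ptprz1*-/- cultures. *Kdr* (ENSMUSG00000062960, chromosome 5 from 75932827 to 75978458), the main signalling receptor for VEGFA, was at 3.99, 3.74 and 21.4 CPM and at 4.09, 1.30 and 7.07 CPM in the same order. The rise of *Kdr* in replicate 3 was 5.36-fold over the higher of the other *Ptprz1*+/+ replicates and 1.73-fold in the libraries labelled *Ptprz1*-/-, which is the smallest rise among the receptors in that genotype. Between the genotypes the log2 fold changes were -1.22 for *Kdr* (standard error 0.88), -0.99 for *Flt1* (1.05), -0.71 for *Tek* (1.14) and -1.37 for *Tie1* (1.83), each with an adjusted p of 1.00 from edgeR. Each of the 4 turned positive without *Ptprz1*+/+ replicate 3, to 0.11, 0.58, 1.74 and 2.25 in the same order, in a fit that still holds the endothelial-rich *Ptprz1*-/- replicate 3. Without both replicate 3 libraries *Kdr* (-0.51), *Flt1* (-0.44) and *Tie1* (-1.32, unadjusted p = 0.0409 in edgeR) stayed negative and *Tek* (1.07) turned, each with an adjusted p of 1.00. With the replicate number as a block the *Tie1* log2 fold change was -1.34. Its edgeR p was then 0.000827 before adjustment and 0.538 after it.

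**Figure D2:**
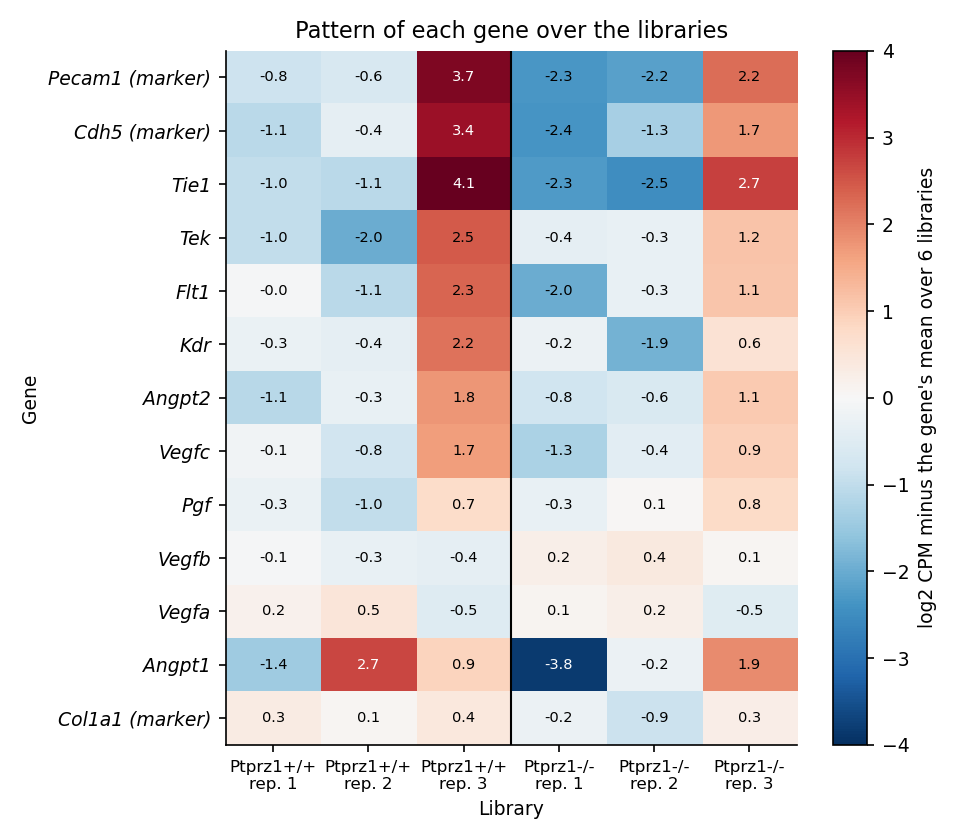
Log2 CPM of each gene in each library minus that gene's mean over the 6 libraries (colour and number), for the 10 genes and for the markers *Pecam1* and *Cdh5* (endothelial) and *Col1a1* (fibroblast). *Tie1* is highest in both replicate 3 columns like *Pecam1* and *Cdh5*, the other receptors, *Angpt2* and *Vegfc* are so to a lesser degree, and *Vegfa* is lowest there.

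Promoter sequences are shown for 3 receptors that were highest in replicate 3 of each genotype and for *Vegfa* and *Vegfb*, which were lowest there. The windows are the bases before the RefSeq start (GRCm38.p6), 5′ to 3′ on the gene's strand, and capitals mark GGAA or its complement TTCC, the core of ETS family sites, which are common in endothelial promoters. They lie at chr5:75978459-75978705 for *Kdr* (minus strand), chr5:147726012-147726261 for *Flt1* (minus), chr4:94739039-94739288 for *Tek* (plus), chr17:46032378-46032627 for *Vegfa* (minus) and chr19:6987652-6987901 for *Vegfb* (minus).
Kdr: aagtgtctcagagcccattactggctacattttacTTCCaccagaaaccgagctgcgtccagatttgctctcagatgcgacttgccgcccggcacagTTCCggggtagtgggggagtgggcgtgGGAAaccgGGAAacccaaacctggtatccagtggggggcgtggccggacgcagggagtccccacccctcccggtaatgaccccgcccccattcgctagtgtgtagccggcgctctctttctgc
Flt1: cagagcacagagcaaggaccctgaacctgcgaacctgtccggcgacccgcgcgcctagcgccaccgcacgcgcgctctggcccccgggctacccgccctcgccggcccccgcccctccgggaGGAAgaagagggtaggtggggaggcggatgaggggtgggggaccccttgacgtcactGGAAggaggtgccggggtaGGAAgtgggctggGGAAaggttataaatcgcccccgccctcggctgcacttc
Tek: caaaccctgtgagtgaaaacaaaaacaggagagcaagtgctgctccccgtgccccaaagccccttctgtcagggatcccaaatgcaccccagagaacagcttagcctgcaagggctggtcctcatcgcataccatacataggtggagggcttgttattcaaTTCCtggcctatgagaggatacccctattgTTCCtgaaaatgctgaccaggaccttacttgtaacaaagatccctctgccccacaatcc
Vegfa: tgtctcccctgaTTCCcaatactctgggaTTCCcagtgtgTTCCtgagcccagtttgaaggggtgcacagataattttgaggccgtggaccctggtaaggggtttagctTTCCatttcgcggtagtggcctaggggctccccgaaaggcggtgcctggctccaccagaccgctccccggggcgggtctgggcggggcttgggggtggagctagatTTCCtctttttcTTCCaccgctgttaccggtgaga
Vegfb: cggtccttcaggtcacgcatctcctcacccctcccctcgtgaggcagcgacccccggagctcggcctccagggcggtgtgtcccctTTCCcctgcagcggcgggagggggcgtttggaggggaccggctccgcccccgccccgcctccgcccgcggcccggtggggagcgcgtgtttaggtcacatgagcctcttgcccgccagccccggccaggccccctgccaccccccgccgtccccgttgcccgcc

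Windows were found for 8 of the 10 genes, and *Angpt1* and *Angpt2* had no entry. In 250 bases, GGAA in either strand was found 4 times for *Kdr*, 4 times for *Flt1*, 2 times for *Tek*, 7 times for *Tie1*, 6 times for *Vegfa*, 1 time each for *Vegfb* and *Vegfc* and 0 times for *Pgf*. Of all 32851 windows 93.4% held it at least once, with a median of 3, while 33.4% held 4 or more, 8.7% held 6 or more and 3.8% held 7 or more. The windows of *Kdr*, *Flt1* and *Tek* thus held between 2 and 4 such tetramers, and *Vegfa*, which was lowest in replicate 3 of each genotype, held 6. The number of CpG dinucleotides was 2 for *Tek* and 6 for *Tie1*, 16 for *Kdr* and 23 for *Flt1*, against 11 for *Vegfa*, 26 for *Vegfb*, 30 for *Vegfc* and 20 for *Pgf* and a median of 6 over all windows. The windows of *Tek* and *Tie1* held the fewest CpG of the 8, and a match of letters is a description and not a bound site. The *Tie1* window is not printed because 212 of its bases lie within the gene as the table gives it. Its counts of GGAA and CpG therefore describe mostly bases within the gene.

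To compare receptor RNA at equal endothelial content, each receptor was divided by the summed CPM of the 17 endothelial markers in the same library. On the log2 scale the difference, the libraries labelled *Ptprz1*-/- minus *Ptprz1*+/+, was -0.52 for *Kdr* (means -5.48 ± 1.16 and -4.97 ± 0.21, SD, n = 3 each), -0.28 for *Flt1*, 0.84 for *Tek* and -0.83 for *Tie1*. By exact permutation (two-sided) p was 0.70, 0.70, 0.20 and 0.60 in that order, and 0.70 for each after adjustment over the 4 receptors. The groups overlapped for each receptor. Endoglin (*Eng*), which mesenchymal cells also make, supplied between 59.9% and 83.5% of this sum in replicates 1 and 2 and 19.8% and 32.7% in replicate 3, so the sum is a weaker measure of endothelial content in the former.

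Relative to *Pecam1* and *Cdh5* alone, *Tie1* was at a CPM ratio of 0.155, 0.0968 and 0.226 in the *Ptprz1*+/+ libraries and of 0.162, 0.0769 and 0.27 in the libraries labelled *Ptprz1*-/-. This scaling lowered the standard deviation of log2 *Tie1* over the 6 libraries from 2.74 to 0.69, and the genotypes' means were equal to the second decimal on that scale (exact two-sided permutation test, p = 1.00). For *Flt1* it fell from 1.54 to 1.00 and for *Tek* from 1.58 to 1.38, while it stayed at 1.32 and 1.33 for *Kdr*. This reference left the spread of *Vegfc* and *Angpt2* about as it was (1.11 and 1.22, and 1.15 and 1.17). It raised that of *Vegfa* from 0.41 to 2.57, that of *Vegfb* from 0.29 to 2.43 and that of *Pgf* from 0.66 to 1.82. *Vegfa*, *Vegfb* and *Pgf* varied less than the reference, so dividing by it passed most of its spread to them. The order of the receptors depended on the reference. Relative to the sum of the 17 markers *Tie1* had the widest spread of the 4 (1.74), above *Kdr* (0.80), *Tek* (0.72) and *Flt1* (0.54), and the spread of *Vegfc* and *Angpt2* fell to 0.26 and 0.48, the lowest of the 10 genes. *Vegfc* and *Angpt2* thus varied least relative to the sum that *Eng* dominates in replicates 1 and 2, and *Tie1* varied least relative to *Pecam1* and *Cdh5*. *Tek* stood at ratios of 0.106, 0.0352 and 0.0499 in the *Ptprz1*+/+ libraries and of 0.412, 0.238 and 0.062 in the libraries labelled *Ptprz1*-/-, a log2 difference of 1.68 between means with overlapping groups (exact two-sided permutation test, p = 0.20). With the mean of the log2 markers that passed the filter (14) as the reference, the *Tek* difference was 1.22. By exact permutation p was 0.10 without adjustment, the smallest possible and the lowest among the receptors and references tried. These *Tek* ratios rest on few reads in replicates 1 and 2.

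**Figure D3:**
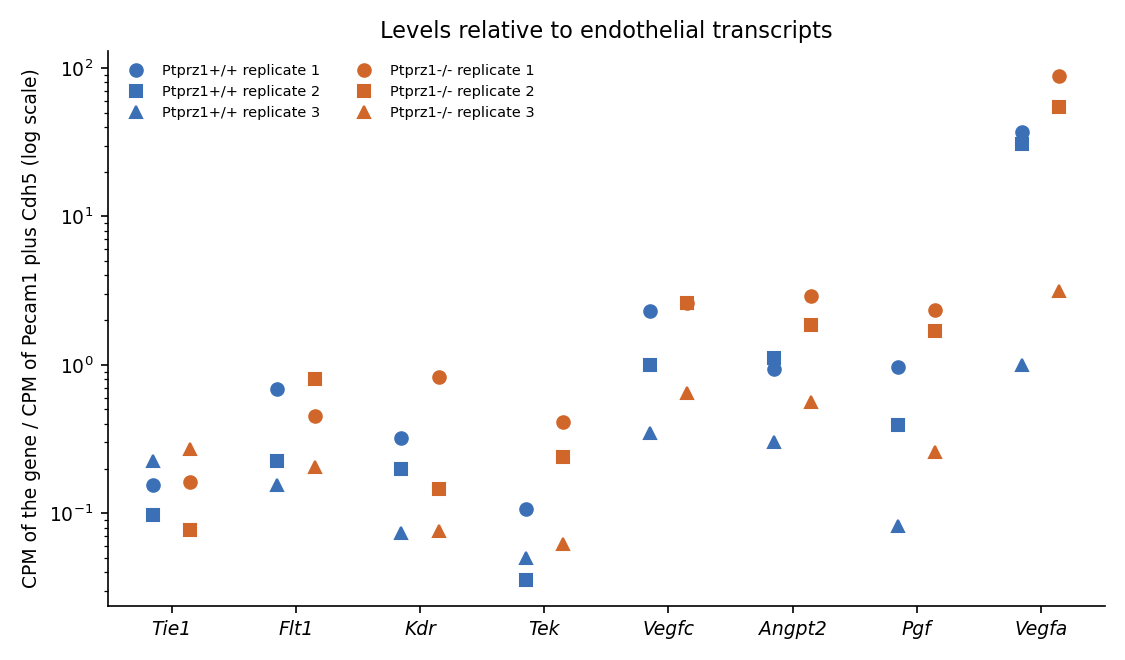
CPM of 8 of the genes divided by the CPM of *Pecam1* plus *Cdh5* in the same library (log scale), 1 point per library, with colour for genotype and shape for replicate number. *Tie1* stays between 0.0769 and 0.27 in all 6 libraries. The *Vegfa* ratio falls from 88.5 in the library labelled *Ptprz1*-/- replicate 1 to 0.996 in *Ptprz1*+/+ replicate 3, mostly because the divisor rises from 4.96 to 290 CPM.

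With the log2 endothelial sum as a covariate of the edgeR fit, the log2 fold changes of *Kdr* and *Flt1* shrank to -0.37 and -0.08, and those of *Tek* and *Tie1* turned to 1.02 and 0.34. The unadjusted p for *Tek* was 0.0377 and the adjusted p of the 4 receptors lay between 0.94 and 0.98 in edgeR. In the same fit the log2 fold change of *Pgf* was 0.60, with an edgeR p of 0.0229 before adjustment and 0.94 after it. Of the 13609 genes, 646 had an unadjusted p under 0.05 in this fit, against 366 without the covariate. The covariate is the sum that *Eng* dominates in replicates 1 and 2, so it is a weak measure of endothelial content there.

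**Figure D4:**
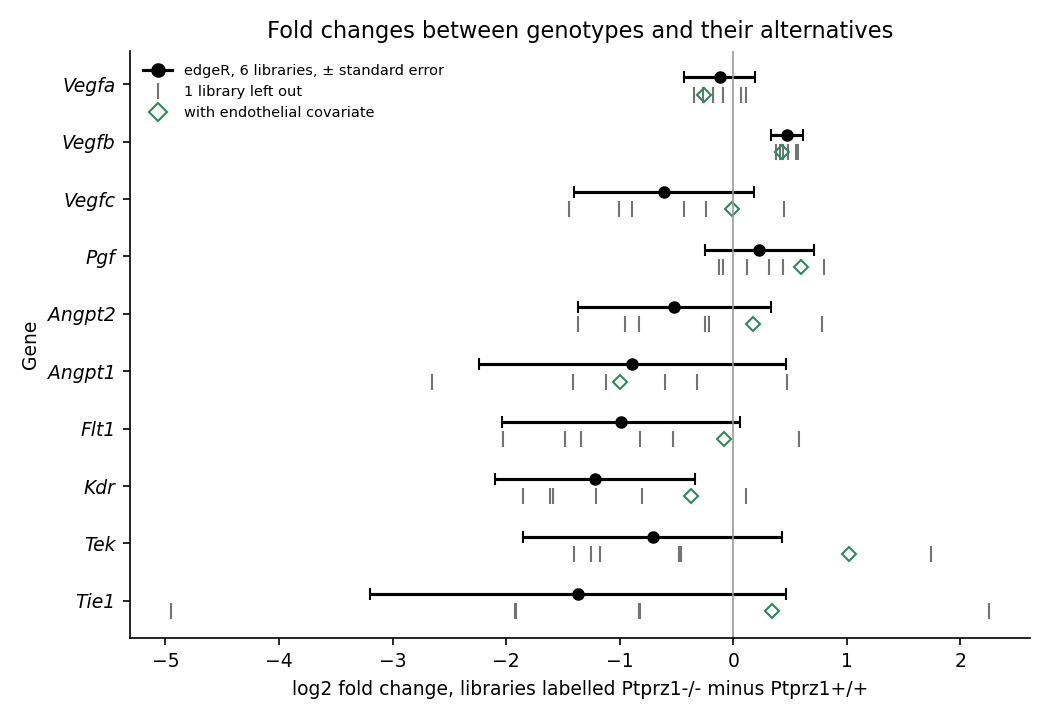
Log2 fold change between genotypes for each gene from edgeR with its standard error (black), from the 6 fits that each left out 1 library (grey ticks) and from the fit with the endothelial marker sum as a covariate (green diamonds). *Vegfb* is the only one of the 10 genes whose values all lie on the same side of 0, from 0.38 to 0.57. Its groups did not overlap, so leaving out 1 library could hardly turn its sign.

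The ratio of *Vegfa* to its receptors was lowest in replicate 3 of each genotype. Per gene length, *Vegfa* exceeded *Kdr* and *Flt1* together 69.5-, 135- and 8.3-fold in the *Ptprz1*+/+ libraries and 125-, 111- and 21.2-fold in the libraries labelled *Ptprz1*-/-. The ratio of *Vegfc* to *Vegfa* was 0.114, 0.0593 and 0.644 in the *Ptprz1*+/+ libraries and 0.0544, 0.0884 and 0.379 in the libraries labelled *Ptprz1*-/-, so the replicate 3 libraries held the most *Vegfc* per *Vegfa*. *Tie1* exceeded *Tek* 4.98- and 4.78-fold in the replicate 3 libraries, while in the others their ratio lay between 0.355 and 3.02. The ratio of *Angpt2* to *Tek* was 11.6, 41.1 and 7.87 in the *Ptprz1*+/+ libraries and 9.23, 10.1 and 11.8 in the libraries labelled *Ptprz1*-/-. The genotypes overlapped in each of these ratios.

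Among all genes tested, those with the most similar pattern were sought by the root mean square difference of log2 CPM after centring each gene on its mean over the 6 libraries. For *Tie1* the closest were *Pecam1* (0.30), *Robo4* (0.41), an endothelial guidance receptor, and *Cldn5* (0.43), an endothelial tight junction protein, which are 3 of the markers. For *Tek* they were *Fli1* (0.37), an ETS transcription factor, *Jag1* (0.43) and *Susd2* (0.47), and for *Kdr* *Spns2* (0.32), *Shank3* (0.36) and *Prkch* (0.37). For *Flt1* the closest gene was *Figf* (0.24), which encodes VEGFD, followed by *Itih4* (0.31) and *Id4* (0.36). *Id4* was also the closest to *Vegfc* (0.16), ahead of *Clu* (0.25) and *Epha3* (0.27).

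*Vegfa* was closest to *Pla2g4a* (0.06), *Pdk1* (0.10), a kinase that restrains pyruvate dehydrogenase, and *Mthfd1l* (0.10). *Vegfb* was closest to *Gm15427*, *Naa38* and *Pqlc3* (0.08 each), and *Pgf* to *Gm13341* (0.09), *Prkg1* (0.13) and *Tmem8b* (0.14). *Angpt2* was closest to *Tmem44* (0.14), *Trp53i11* (0.20) and *Aatk* (0.25). *Angpt1* had no close match, with 0.53 to *Dio2*, 0.56 to *Col24a1* and 0.59 to *Bmp2*, and its closest member was *Angpt2* at 1.66. Genes that vary little come close to more others by this measure. The standard deviation of log2 CPM was below that of *Vegfb* in 51.3% of the genes tested and below that of *Vegfa* in 65.7%, but below that of *Tie1* in 99.9%.

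The wider VEGF pathway was read with a list of 30 genes chosen for their role, of which 29 were in the table (all but *Sh2d2a*) and 27 passed the filter (not *Nos3* and *Dll4*). By edgeR, DESeq2 and limma voom alike, 0 of the 27 reached an adjusted p under 0.05, and their median log2 fold change was -0.02, against -0.00 over all genes. At an unadjusted p under 0.05 there were 2, both lower, and 0 higher, beside 2.69% of all genes. These were *Prkcb*, a protein kinase C isoform, at 3.56, 28.4 and 3.79 CPM across the *Ptprz1*+/+ cultures, against 0.93, 2.81 and 1.26 CPM across the *Ptprz1*-/- cultures, and *Nfatc1*, a calcium-regulated transcription factor, at 9.42, 13 and 16 and at 8.06, 9.75 and 6.61 CPM. Their unadjusted p was 0.025 and 0.0481, and the adjusted p 1.00 for each, in edgeR. *Prkcb* was also the 1 gene of the 27 whose groups did not overlap, lower with the *Ptprz1*-/- label, beside 3.73% of all genes tested, and its highest value comes from *Ptprz1*+/+ replicate 2 alone. Transcripts of some proteins that carry the signal varied little, with *Akt1* between 353 and 432 CPM and *Plcg1*, a phospholipase that binds activated KDR, between 90.9 and 117 CPM.

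Further ligand and receptor genes of the VEGF list were abundant. *Figf* was at 95.8, 40.1 and 547 CPM across the *Ptprz1*+/+ cultures, against 25.4, 88.3 and 313 CPM across the *Ptprz1*-/- cultures, with replicate 3 highest in each genotype. *Flt4*, the receptor for VEGFC and VEGFD on lymphatic vessels, was at 26.5, 15 and 64.4 CPM and at 61.3, 57.4 and 44.1 CPM in the same order. It was thus highest in replicate 3 of the *Ptprz1*+/+ libraries and lowest in replicate 3 of the others, which is unlike *Kdr* and *Flt1*. The co-receptor gene *Nrp1* was at 140, 84.4 and 392 CPM and at 108, 203 and 247 CPM, and *Nrp2* at 113, 215 and 131 and at 174, 161 and 153 CPM. Neither *Figf* (log2 fold change -0.68, standard error 1.17), *Flt4* (0.62, 0.51), *Nrp1* (-0.14, 0.60) nor *Nrp2* (0.09, 0.25) passed, each with an adjusted p of 1.00 from edgeR. The groups overlapped for each of them.

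Transcripts that VEGF signalling is known to raise in endothelial cells were low in most libraries or varied between them. *Esm1*, a tip cell gene, was at 0.906, 4.95 and 3.34 CPM across the *Ptprz1*+/+ cultures, against 1.49, 2.54 and 2.51 CPM across the *Ptprz1*-/- cultures. *Dll4*, the Notch ligand of tip cells, did not pass the filter and had 11.6 and 3.04 CPM in the replicate 3 libraries but at most 0.33 CPM in the others. *Nos3*, the endothelial nitric oxide synthase, was likewise at 7.26 and 3.37 CPM there and at most 0.434 CPM elsewhere. *Apln*, which encodes apelin, was highest in *Ptprz1*+/+ replicate 2, at 109 CPM, and between 7.63 and 40 CPM in the other libraries, so it did not share the replicate 3 pattern. *Rcan1*, a feedback inhibitor of calcineurin, lay between 17.8 and 36 CPM, *Egr3* between 0.302 and 1.89 CPM and *Nr4a1*, an immediate early gene, between 9.3 and 126 CPM, with its highest value in the library labelled *Ptprz1*-/- replicate 2.

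On the angiopoietin side, 14 further genes were read and 12 passed the filter (not *Dok2* and *Grb7*). By each of the 3 tools 0 of the 12 reached an adjusted p under 0.05, 0 had an unadjusted p under 0.05 in edgeR, and the median log2 fold change was -0.02. *Ptprb*, the endothelial phosphatase (VE-PTP) that restrains TIE2, was at 13.2, 5.61 and 33.4 CPM across the *Ptprz1*+/+ cultures, against 9.49, 9.54 and 7.27 CPM across the *Ptprz1*-/- cultures. It was highest in *Ptprz1*+/+ replicate 3 and lowest of its genotype in the library labelled *Ptprz1*-/- replicate 3, with a log2 fold change of -0.99 (SE 0.60, edgeR adjusted p = 1.00). *Angpt4*, a further TIE2 ligand, was between 3.16 and 6.41 CPM in all 6 libraries. *Svep1*, an extracellular matrix protein that binds TIE1, was at 428, 211 and 956 CPM across the *Ptprz1*+/+ cultures, against 148, 577 and 659 CPM across the *Ptprz1*-/- cultures. *Foxo1*, the transcription factor that TIE2 signalling holds in check, lay between 13.2 and 22.3 CPM, and *Itgb1*, whose product can bind angiopoietins as part of an integrin, between 923 and 1958 CPM.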

How the data were processed

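The authors deposited a table with the raw count of reads per gene and library and with FPKM values, which they scaled by gene length and library total. Their group means, fold changes, p-values and lists of called genes were not used. The submitters' processing notes name STAR, HTSeq, TopHat, DESeq2 and edgeR and the builds GRCm38 and mm10, without their roles, and the use of strand in counting is not given in the sources used here. GENCODE M21 lists 98.9% of the identifiers.

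The genotypes were compared by the quasi-likelihood test of edgeR 4.0.16 (R 4.3.3), after filterByExpr and TMM scaling, with genotype as the only term, Benjamini-Hochberg adjustment and a threshold of 0.05. The SE is the size of the log2 fold change over the root of F. Ratios and other single values were compared with an exact two-sided permutation test. Log2 CPM for likeness between genes used a prior count of 2. The fits were run on simulated libraries in which 200 genes were changed, each by a larger log2 fold change than that of any member here. The simulated libraries did not differ in cell content, so that run does not cover small changes or mixed cultures. Depth was 14496881 to 17709663 counts per library, and low genes rest on few reads. Each library is a separate isolation.

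The members and lists were chosen with earlier results of these data known. Named genes are the members, *Ptprz1*, the pathway list, up to 4 genes of each marker list and the 3 genes of most similar pattern. Alternatives were upper-quartile normalization, DESeq2 1.42.0, limma 3.58.1 (voom), other filters on low counts, a block for the replicate number, single libraries left out, an endothelial covariate, other endothelial references and, chosen after seeing the data, both replicate 3 libraries left out. Promoter sequences are from RefSeq (GRCm38.p6).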

Additional observations from a re-analysis of the deposited data

How the results depend on the processing

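No member and no gene of the pathway list passed under any of the 14 alternatives that were fitted, each library left out included (*Angpt1* was not tested with at least 10 counts in every library). Over all genes the number called was 0 except with DESeq2 (30), and the lowest adjusted p of a member was 0.538 (*Tie1*, replicate block). DESeq2 gave no p for *Tek* and *Tie1*. Of 139 recomputed member fold changes 122 kept their sign and 17 turned, and *Vegfb* was the one member that never turned. The groups of *Vegfb* did not overlap, so leaving out libraries could hardly turn its sign. The endothelial covariate turned *Angpt2* (0.17), *Tek* (1.02) and *Tie1* (0.34), limma voom turned *Tek* (0.38), and so did leaving out both replicate 3 libraries (1.07).

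With each library left out, log2 fold changes ranged from -0.35 to 0.11 for *Vegfa*, 0.38 to 0.57 for *Vegfb*, -1.45 to 0.45 for *Vegfc*, -0.13 to 0.80 for *Pgf*, -1.85 to 0.11 for *Kdr*, -2.03 to 0.58 for *Flt1*, -2.65 to 0.47 for *Angpt1*, -1.37 to 0.78 for *Angpt2*, -1.40 to 1.74 for *Tek* and -4.95 to 2.25 for *Tie1*. The receptor to endothelial log2 difference ranged from -1.04 to 0.11 for *Kdr*, -0.59 to 0.14 for *Flt1*, 0.49 to 1.29 for *Tek* and -2.09 to 0.01 for *Tie1*. With *Pecam1* and *Cdh5* as reference it turned for *Kdr* (0.32) and *Flt1* (0.55), and with the mean of the log2 markers for *Flt1* (0.17). The cause of these shifts was not tested.

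The labels do not say whether the replicate numbers pair the samples. The deviations of same-numbered libraries correlated at 0.447, -0.058 and 0.523 over genes, and those of differently numbered libraries between -0.567 and 0.09. Numbers 1 and 3 were thus alike across genotypes and number 2 was not, and a shared origin was not tested. Deviations from the group mean cancel within each genotype, so these correlations depend on each other. The likeness of number 1 is therefore not separate from that of number 3. With the replicate block 0 genes passed, 690 had an unadjusted p under 0.05 (366 without it), among them *Vegfb* (0.47) and *Tie1* (-1.34), and *Tek* turned (0.22). The unadjusted edgeR p of *Tie1* was 0.000827 with the block and 0.481 without it. With the block, the receptor to endothelial difference is the mean over 3 pairs, which equals the value without the block by construction. It was thus again -0.52 for *Kdr*, -0.28 for *Flt1*, 0.84 for *Tek* and -0.83 for *Tie1*, and 3 pairs cannot reach significance.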
